A study of Bos indicus with 11 samples.

Results

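TMEM213 and 7 genes that mark proton-secreting epithelia were followed in endometrial biopsies of Nelore (Bos indicus) cows: ATP6V0A4, ATP6V1B1, ATP6V0D2, ATP6V1C2, CFTR, CA2 and FOXI1. Rows were taken by gene symbol from the deposited table, which lists 24616 genes by Ensembl identifier. All 8 genes were found, and 7 of them had a read in at least 1 cow, against 18919 of the genes in the table. TMEM213 had been selected on its measured values in this same table, which were higher in pregnant cows, so its own difference between the groups is given as a description without a test. The other 7 genes were chosen for their known place in proton secretion, after earlier results of these data were known.

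The cows were healthy and multiparous, their estrus was synchronized, and they were artificially inseminated (AI) at detected estrus. A biopsy was taken on day 6 after AI from the uterine horn opposite the corpus luteum, and pregnancy was diagnosed on day 30. RNA sequencing compared 6 cows later found pregnant (P) with 5 cows later found non-pregnant (NP), each cow giving 1 sample. No treatment distinguishes the groups, which are set only by the later diagnosis, and a biopsy holds luminal and glandular epithelium, stroma, vessels and at times underlying muscle. Cow P617 is labelled pregnant and was kept as P, although the supplement of the study names it as an NP cow.

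Some epithelia pump protons out of the cell with the vacuolar H+-ATPase (V-ATPase), a rotary enzyme with a cytosolic V1 part that splits ATP and a membrane V0 part that carries the protons. Most of its subunits are used by every cell, while a few isoforms are concentrated in specialized cells such as the intercalated cells of the kidney, the narrow and clear cells of the epididymis and the ionocytes of the airway. In these cells the transcription factor FOXI1 is a known driver of the isoforms, carbonic anhydrase supplies the protons, and chloride and bicarbonate carriers accompany them. In the uterus, the epithelium helps to set the pH and ion content of the fluid in which the early embryo lies.

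The values are read counts divided by a size factor for each cow, here called normalized counts, and 1 read was worth 0.784 to 1.14 of them. Between 9290949 and 13569085 reads fell on genes per cow. Levels are not compared between genes, because transcript lengths are not in the table. In a biopsy, fewer cells of a type and less RNA per cell cannot be told apart. The epithelial markers were present in every cow (19 of 20 listed markers found, all 19 tested), but their summed normalized count ran from 3413 in P617 to 34472 in P1631 among the P cows and from 15500 to 22207 among the NP cows. The sum over smooth muscle markers ran from 85661 to 671570 in P cows, the highest in P617, and from 42698 to 287789 in NP cows. Cow P1631 had the lowest number of reads on genes and stands apart in several results, which are therefore also given without it.

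TMEM213 (ENSBTAG00000001527) encodes a small membrane protein of little-known function whose transcript is found in kidney intercalated cells. Its normalized count in the P cows was 159 at the lowest, 285 at the median and 1287 at the highest. In the 5 NP cows it was 43.6, 87.7, 87.8, 184 and 190. Thus 5 of the 6 P cows lay above every NP cow, and the lowest P cow, P2396, lay among the NP cows. P1631 held the highest value, 3.70 times that of the next cow, P1753 with 348. The mean was 430 ± 426 (SD, n = 6) in P and 119 ± 65.0 (SD, n = 5) in NP, a log2 fold change of P over NP of 1.65 (SE 0.53), on the log2(normalized count + 1) scale used for every fold change below. Without P1631 it was 1.26 (SE 0.40), with a P mean of 258 ± 77.1 (SD, n = 5). Cow P617 had the lowest epithelial marker sum of the 11 cows but a TMEM213 value of 321, exceeded only by P1631 and P1753. With P617 as an NP cow the log2 fold change was 1.39, and P1631 and P1753 alone would lie above every NP cow.

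**Figure D1:**
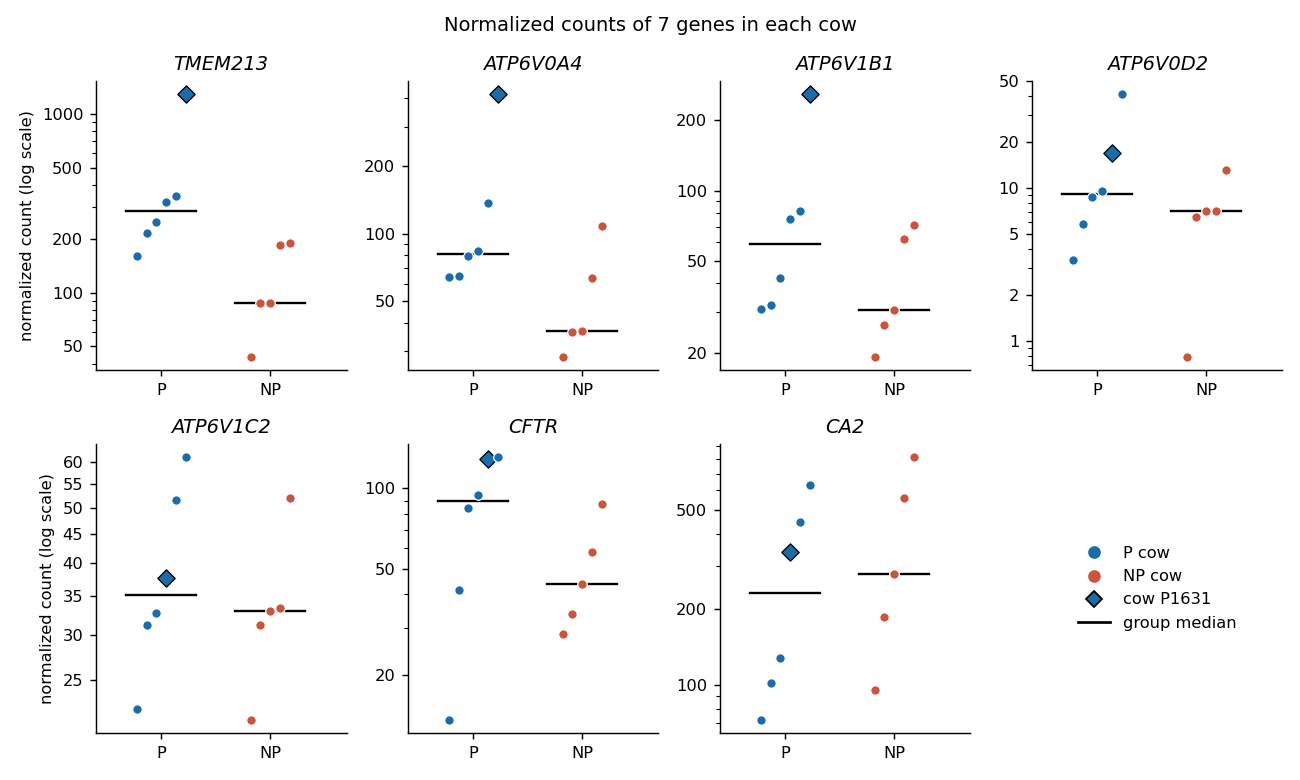
Normalized counts (log axis, a range of its own in each panel) of the 7 genes with reads in the 6 P and 5 NP cows. Each point is a cow, the bar is the group median, and the diamond is cow P1631, which is the highest cow for TMEM213 (1287), ATP6V0A4 (418) and ATP6V1B1 (259) but lies within the other cows for ATP6V0D2, ATP6V1C2, CFTR and CA2.

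Among the V0 subunits, ATP6V0A4 (ENSBTAG00000004263), the a4 isoform of the membrane part that is concentrated in intercalated cells, had the largest difference of the genes other than TMEM213. Its normalized count in P cows was 64.4 at the lowest, 81.4 at the median and 418 at the highest. In the NP cows it was 28.2, 36.5, 36.7, 63.5 and 108. All 6 P cows exceeded the NP median, but only 2 exceeded every NP cow, so the groups overlapped. The mean was 141 ± 138 (SD, n = 6) in P and 54.6 ± 32.8 (SD, n = 5) in NP, a log2 fold change of 1.15 (SE 0.51, 95% interval 0.03 to 2.26). In limma this gave an unadjusted p of 0.0452 and an adjusted p of 0.621, so ATP6V0A4 did not pass, and the unadjusted p ran from 0.0179 to 0.108 when 1 cow was left out. Without P1631 the log2 fold change was 0.76 (SE 0.38, 95% interval -0.08 to 1.60, adjusted p = 0.621 in limma).

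ATP6V0D2 (ENSBTAG00000021092), the d2 isoform of the V0 part, known from osteoclasts, kidney and epididymis, was the least abundant in reads, with 1 to 41 reads per cow. Its normalized count was 3.39 at the lowest, 9.17 at the median and 41.3 at the highest in P cows, the last in P1753. In the NP cows it was 0.784, 6.45, 7.08, 7.10 and 13.3. The groups overlapped over most of their range, and the log2 fold change was 0.81 (SE 0.66, 95% interval -0.63 to 2.25, adjusted p = 0.807 in limma). It was 0.34 without NP2541, the cow with 1 read, and 0.43 without P1753.

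Of the V1 subunits, ATP6V1B1 (ENSBTAG00000010620), the B1 isoform of the ATP-splitting head and the one that intercalated cells use, ran from 31.0 in P1541 to 259 in P1631 in the P cows, with a median of 59.0. In the NP cows it was 19.3, 26.5, 30.6, 61.7 and 71.0. All 6 P cows lay above the NP median, and 3 of them lay above every NP cow. The log2 fold change was 0.78 (SE 0.56, 95% interval -0.44 to 1.99, adjusted p = 0.792 in limma), and it was 0.38 (SE 0.44) without P1631. ATP6V1C2 (ENSBTAG00000001927), the C2 isoform of the stalk, found in lung, kidney and epididymis, showed little difference. It was 22.3, 35.2 and 61.3 at the lowest, median and highest P cow, against 21.3, 31.2, 32.9, 33.4 and 52.0 in the NP cows. Its log2 fold change of 0.18 (SE 0.31) had a 95% interval of -0.51 to 0.87 in limma.

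CFTR (ENSBTAG00000006589), the cAMP-gated chloride and bicarbonate channel of secretory epithelia and airway ionocytes, was 13.6 at the lowest, 89.5 at the median and 131 at the highest in P cows. In the NP cows it was 28.4, 33.7, 43.8, 57.7 and 87.1. The lowest of the 11 cows was P617, and 3 P cows lay above every NP cow. The log2 fold change was 0.49 (SE 0.56, 95% interval -0.73 to 1.71, adjusted p = 0.863 in limma). The value moved with P617, whose grouping is in doubt. Without that cow it was 0.93 (adjusted p = 0.494 in limma), with it as an NP cow 1.22 (adjusted p = 0.653 in limma), and without P617 and P1541, the P cows with the highest smooth muscle sums, 1.20 (SE 0.33, adjusted p = 0.210 in limma). Without P1631 it was 0.30, as it was without P2396, and without NP638 it was 0.32.

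CA2 (ENSBTAG00000017733), the cytosolic carbonic anhydrase that turns carbon dioxide and water into bicarbonate and a proton, was the gene with the opposite sign. It was 72.3 at the lowest, 234 at the median and 630 at the highest in P cows, and 94.9, 187, 277, 562 and 817 in the NP cows. The ranges overlapped almost fully, and its log2 fold change was -0.48 (SE 0.68, 95% interval -1.95 to 1.00, adjusted p = 0.888 in limma). The sign turned with P617 as an NP cow and without P617 and P1541, with 0.17 in each case. CA2 is also abundant in red blood cells. Of the 5 erythroid entries found, 1 hemoglobin alpha entry had 0 reads and another 2, and the hemoglobin beta entry had 54 reads over the 11 cows.

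FOXI1 (ENSBTAG00000014620), the forkhead factor, had 0 reads in each of the 11 cows. A floor of 3 reads corresponds to 2.35 to 3.43 normalized counts in a cow, so a level above that was not seen at this depth. It has no fold change and no correlation.

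In all, 0 of the 6 genes tested besides TMEM213 passed an adjusted p of 0.1 in limma, where 0 of 15081 genes (0%) passed. At an unadjusted p under 0.05, 1 of the 6 passed, against 7.84% of all genes in either direction and 2.35% with the higher level in P. The count past the adjusted threshold was also 0 of 6 with edgeR, with limma-voom and with DESeq2, which called 1.33% of all genes. Of the 6, 5 had the higher level in P, and their median log2 fold change was 0.63, against -0.0018 over all genes tested, of which 49.8% were higher in P. None of the 7 genes with reads had every P cow above every NP cow, a pattern seen in 0.239% of all genes.

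**Figure D2:**
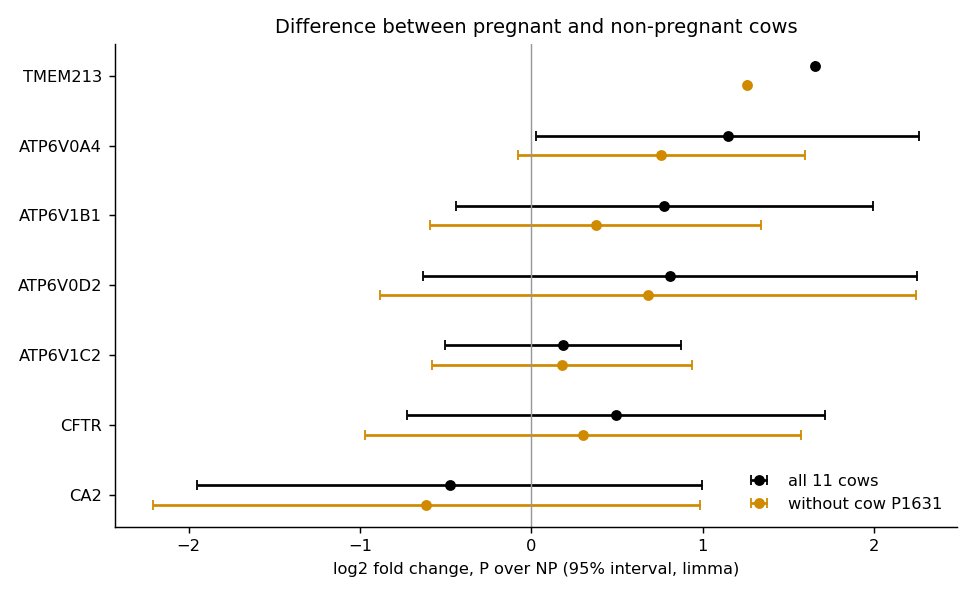
Log2 fold change of P over NP with its 95% interval from limma, for all 11 cows and without cow P1631. TMEM213, chosen for this difference, is drawn as points without an interval (1.65 and 1.26), and of the other 6 genes ATP6V0A4 alone has an interval above 0 with all cows, which reaches below 0 without P1631.

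Co-variation with TMEM213 was measured as Pearson's r across the 11 cows after each group's mean was subtracted from the log2 values, so that the difference between P and NP does not enter. The p-value came from all 86400 orders that shuffle cows within their group. Two-sided exact p-values were adjusted over the 15080 other genes tested, of which 0 (0%) passed an adjusted p of 0.05. The smallest exact p was 5.787e-05 (adjusted p = 0.611). With 86400 orders the exact p has a floor, and over 15080 genes a gene alone at that floor could not pass. Not passing this adjustment therefore says little about a single gene.

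ATP6V1B1 ranked 2 of 15080 genes, with r = 0.92 (exact permutation p = 0.000856, adjusted p = 0.985). ATP6V0A4 ranked 5, with r = 0.88 (exact permutation p = 0.00389, adjusted p = 0.985). Both subunits therefore moved with TMEM213 from cow to cow, but neither passed the adjustment over all genes, which no gene could pass alone. At an unadjusted exact p under 0.05 there were 2 of the 6 members with a positive r, against 1.94% of all genes. Spearman's rho was 0.836 for ATP6V1B1 (exact permutation p = 0.00319) and 0.645 for ATP6V0A4 (exact permutation p = 0.0493). Without group centring, r was 0.888 for ATP6V1B1 (permutation p = 0.00052) and 0.917 for ATP6V0A4 (permutation p = 0.00012). These uncentred values include the difference between P and NP on which TMEM213 was chosen, so they add no separate support.

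Cow P1631 carried part of both relations. Without it, r was 0.83 for ATP6V1B1 (exact permutation p = 0.00701) and 0.73 for ATP6V0A4 (exact permutation p = 0.0506), with Spearman's rho of 0.842 and 0.806. Without the 2 cows farthest from the TMEM213 median, P1631 and NP638, r was 0.780 for ATP6V1B1 (exact permutation p = 0.0510) and 0.796 for ATP6V0A4 (exact permutation p = 0.0514). Both values kept their sign, with p no longer under 0.05. Adding the epithelial marker score to the fit left r at 0.922 for ATP6V1B1 and 0.887 for ATP6V0A4, and adding the smooth muscle score left it at 0.898 and 0.841. Among the 5 NP cows, the pair with the highest TMEM213 (NP238 and NP856) also had the highest ATP6V0A4 and ATP6V1B1.

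The other members had a lower r with TMEM213, and none of them reached an unadjusted exact p under 0.05. CFTR had r = 0.36 (exact permutation p = 0.318), ATP6V0D2 0.25 (exact permutation p = 0.481), CA2 0.18 (exact permutation p = 0.623) and ATP6V1C2 0.06 (exact permutation p = 0.878). Between 12.6% and 43.1% of all genes had an r at least as high as these. Some of these genes had a higher r with each other than with TMEM213. It was 0.76 between CFTR and CA2, 0.66 between ATP6V1C2 and CA2 and 0.55 between ATP6V0D2 and CFTR, and without P1631 it was 0.75, 0.67 and 0.52. ATP6V1B1 and ATP6V0A4 had r = 0.78 with each other, and 0.49 without P1631. These values between pairs are descriptions without a test.

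**Figure D3:**
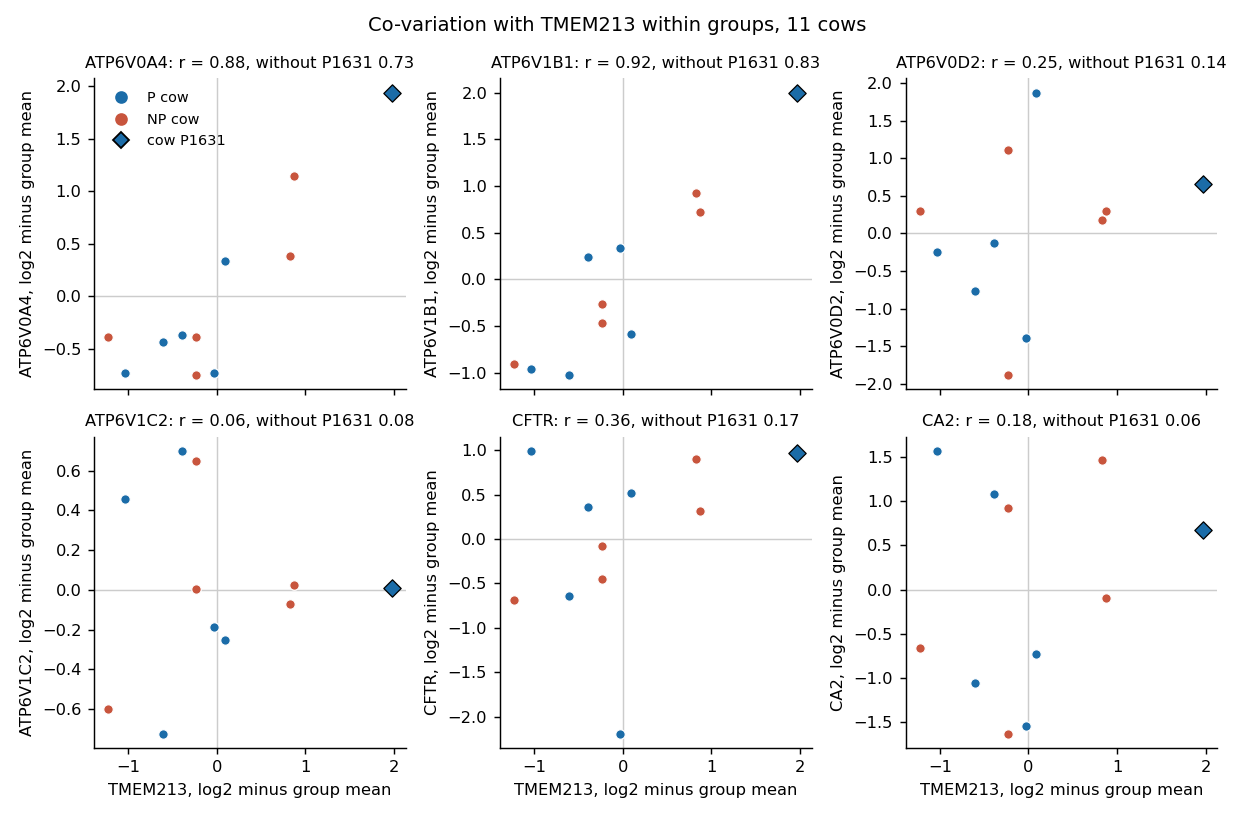
TMEM213 (x axis) against each of the 6 other members (y axis), as log2(normalized count + 1) minus the group mean, with 1 point per cow. P1631 is the diamond at the top right for ATP6V0A4 (r = 0.88, and 0.73 without it) and ATP6V1B1 (0.92 and 0.83), while the points for ATP6V1C2 (0.06) and CA2 (0.18) are spread without a clear slope.

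The ratio of 2 genes within a cow is free of the size factor. TMEM213 over ATP6V0A4 had a median of 2.71 over the 11 cows and ran from 1.19 in NP638 to 4.98 in P617, with 3.08 in P1631. TMEM213 over ATP6V1B1 had a median of 3.31 and ran from 2.26 in NP638 to 8.24 in P1753, with 4.96 in P1631. P1631 thus did not stand at the end of either ratio, although it held the highest value of all 3 genes.

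TMEM213 and ATP6V0A4 are neighbours in the genome. In the RefSeq annotation of the Bos indicus Tharparkar assembly, which is not the UMD3.1 build of the study and is used here only for gene order, the ends of these genes overlap. The sources used here do not state whether counting used the strand, so reads from the shared end may be assigned to either gene or left out, and the part of this in their r was not tested. SVOPL, a transporter-like gene on the other side of ATP6V0A4, had r = 0.19 with TMEM213, and in limma it was higher in P by 0.75 on the log2 scale at an adjusted p of 0.867. ATP6V1B1 lies on another chromosome, between ANKRD53 and VAX2.

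Outside the members, the genes that most resembled TMEM213 over the 11 cows were PI3 (elafin, a secreted inhibitor of elastase), ELF5 (an ETS transcription factor of secretory epithelium), EYA2 (a transcriptional coactivator) and GP2 (a membrane glycoprotein of secretory granules). Their r was 0.93, 0.92, 0.91 and 0.87, which placed them at ranks 1, 3, 4 and 6. Without P1631 it was 0.87, 0.84, 0.80 and 0.71. All were highest in P1631 and lowest in NP638, as TMEM213 was. PI3 ran from 34.8 to 319 normalized counts in P cows and from 6.09 to 69.8 in NP cows. GP2 ran from 207 to 5075 in P cows and from 97.4 to 232 in NP cows, and its log2 fold change was 1.73 (SE 0.70, adjusted p = 0.563 in limma). TBCK, SQSTM1, DLX3, AGA, SLC44A2 and PAQR4 completed the 10 genes with a symbol and the highest r, from 0.85 to 0.86. Of these 6, AGA, a lysosomal hydrolase, was the only one with a log2 fold change above 0, at 0.04 (SE 0.11). At the other end were SLITRK4 (r = -0.92), CCDC43 (-0.91), GPR83 (-0.91), METTL3 (-0.86), which encodes the mRNA N6-adenosine methyltransferase, and NAGS (-0.86).

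The remaining V-ATPase genes include the subunits that most cells use and some further isoforms of specialized cells. Of the 10 other V1 subunits tested, 6 were higher and 4 lower in P, 0 passed an adjusted p of 0.1 in limma, and 0 were under an unadjusted p of 0.05. Their median log2 fold change was 0.03 and their median r with TMEM213 was 0.23. The B2 isoform ATP6V1B2, the widely used counterpart of ATP6V1B1, was 1440 ± 145 (SD, n = 6) in P and 1364 ± 113 (SD, n = 5) in NP, with r = 0.24. ATP6V1G3, a stalk isoform known from kidney, was low, with 98 reads in all, spread over 9 cows. It ran from 0 to 31.2 normalized counts in P and from 0 to 10.1 in NP. Of the P cows, 4 lay above every NP cow, P1631 only narrowly at 10.3. The log2 fold change of ATP6V1G3 was 1.04 (SE 0.97, adjusted p = 0.832 in limma), with r = -0.22. ATP6V1G2, a related isoform known from brain, had -0.95 (SE 0.53, adjusted p = 0.730 in limma). Of the 9 other V0 subunits and accessory proteins, 2 were higher and 7 lower in P, again with 0 past either threshold in limma, a median log2 fold change of -0.11 and a median r of -0.15. ATP6V0D1, the common d isoform, was 2470 ± 413 (SD, n = 6) in P and 2723 ± 399 (SD, n = 5) in NP. The highest r in this list belonged to ATP6V0B, a subunit of the proton-carrying ring (0.66), and ATP6AP1, an accessory protein (0.65).

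Other genes of intercalated cells and ionocytes were low or without reads. Of 19 listed, 18 were found and 8 had a mean of at least 5. The anion exchanger SLC4A1, the chloride channel subunit BSND and the transcription factors ASCL3, FOXI2 and FOXI3 had 0 reads in all 11 cows, as FOXI1 did. Other markers had reads but a mean under 5. SLC26A4 had 23 reads in 7 cows, with 18.3 normalized counts in P1631, and RHCG had 19 reads in 7 cows, the most in NP638. Several defining markers of these cells were thus not detected and others were low, so the members are here named by their genes and not as a cell type. Of the 8 tested, 2 were higher and 6 lower in P, 0 passed in limma, and 1, the insulin receptor-related receptor INSRR, was under an unadjusted p of 0.05. INSRR was 8.56 ± 4.85 (SD, n = 6) in P and 21.8 ± 6.99 (SD, n = 5) in NP, a log2 fold change of -1.37 (SE 0.45, adjusted p = 0.444 in limma). All 8 had a positive r with TMEM213, the median was 0.28 against -0.01 over all genes, and the highest was 0.63 for the transcription factor TFCP2L1 at 29.7 normalized counts in P1631 and a mean of 8.11 over the cows. The mean log2 level of these 8 genes was highest in P1631 and lowest in P617.

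Of the 10 other carbonic anhydrase entries tested, 7 were higher and 3 lower in P, and 0 passed in limma. The membrane-bound CA14 had a log2 fold change of 1.73 (SE 0.62, adjusted p = 0.492 in limma), with 42.9 ± 33.2 (SD, n = 6) in P and 12.9 ± 11.8 (SD, n = 5) in NP, and CA8, a member without enzyme activity, 0.67 (SE 0.29, adjusted p = 0.598 in limma). These were the 2 entries under an unadjusted p of 0.05, and their r with TMEM213 was -0.41 and -0.10. The highest r of this list, 0.74 and 0.65, belonged to the 2 entries named CA1, at means of 6.96 and 11.8 normalized counts. Of 15 other acid, bicarbonate and chloride transporter entries, 9 were higher and 6 lower in P, with 0 past the adjusted threshold in limma and 3 under an unadjusted p of 0.05. Among these the sodium bicarbonate cotransporter SLC4A7 had a log2 fold change of 0.70 (SE 0.28, adjusted p = 0.542 in limma), and its relative SLC4A5 had -1.38 (SE 0.49, adjusted p = 0.492 in limma). SLC4A4, another such cotransporter, was 74.4 ± 36.1 (SD, n = 6) in P and 31.4 ± 12.7 (SD, n = 5) in NP (adjusted p = 0.573 in limma). The sodium channel subunit SCNN1A had the highest r with TMEM213 of this list, at 0.64.

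Markers of the tissue's cell types moved with these results to different degrees. All 19 epithelial markers had an r with TMEM213 above 0, with a median of 0.25, while 16 of 19 were lower in P by mean log2 value. The P cows were spread to both ends of these markers. In their mean log2 level P617 and P1541 were the lowest of all cows, and P1631, P2396 and P1753 the highest. KRT7, a keratin of simple epithelium, was the 1 epithelial marker under an unadjusted p of 0.05, with a log2 fold change of 1.03 (SE 0.37, adjusted p = 0.496 in limma) and r = 0.70. All 6 gland markers had a positive r, led by LGR5 with 0.69, and 1 of 6 was higher in P. The 9 smooth muscle entries had r between -0.53 and -0.45 and all were higher in P, with a median log2 fold change of 1.35. The 10 stromal markers had r below 0, with a median of -0.34, and 9 were lower in P. The ciliated cell markers had a median r of 0.05 and all 10 were lower in P. Their mean log2 level was lowest in P617 and P1541 and highest in P2396. All 7 endothelial markers, all 10 of macrophages and osteoclasts and all 7 of lymphocytes and mast cells were lower in P, with median log2 fold changes of -0.66, -0.72 and -0.37 and median r of -0.12, -0.04 and -0.0049. Of the osteoclast genes, which share ATP6V0D2, OSCAR had the highest r with TMEM213, 0.74, at a mean of 9.69 normalized counts. At an unadjusted p under 0.05 in limma, 6 of 7 endothelial and 4 of 10 macrophage and osteoclast markers were lower in P. So were 2 of 10 stromal and 1 of 7 lymphocyte and mast cell markers, while 2 of 9 smooth muscle entries were higher. The gland and ciliated cell lists had 0, and the share over all genes was 7.84% in either direction. In none of these lists did a gene pass an adjusted p of 0.1 in limma, and the part of cell composition in the members' differences was not tested beyond the fits with the marker scores. With the epithelial score in the fit, the log2 fold change was 1.27 for ATP6V0A4, 0.83 for ATP6V1B1 and 0.71 for CFTR (adjusted p = 0.255, 0.578 and 0.271 in limma). With the smooth muscle score it was 1.67, 1.31 and 1.36 (adjusted p = 0.698, 0.851 and 0.702 in limma).

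**Figure D4:**
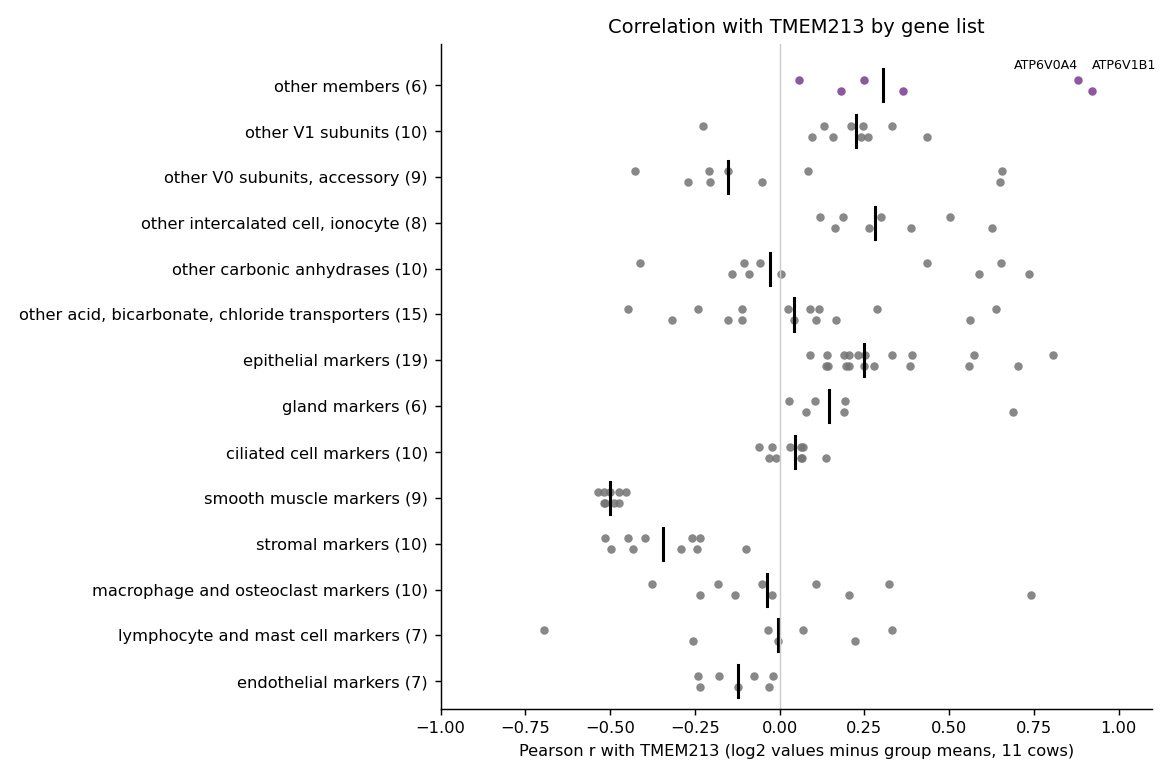
Pearson's r with TMEM213 (x axis, group means subtracted, 11 cows) for each tested gene of each list (y axis, number of entries in brackets), with the list's median as a bar. ATP6V1B1 (0.92) and ATP6V0A4 (0.88) lie to the right of every gene in the other lists, and the smooth muscle entries form a cluster below -0.45.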

How the data were processed

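RNA of 11 biopsies was poly(A)-selected and sequenced as paired ends. The authors deposited 1 table of normalized counts per gene, a signal that is never negative. Per the study's methods and processing notes, reads were filtered, mapped with Bowtie2 2.1.0 to the masked UMD3.1 assembly, counted with HTSeq 0.5.4p2 and divided by DESeq2 size factors. Use of strand is not given in the sources used here. Whole reads (within 0.01 of a read) were recovered for 100% of the values.

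The members and gene lists were chosen with earlier results of these data known. Genes with a mean of at least 5 (15081) were compared with limma 3.58.1 in R 4.3.3 on log2(value + 1), with Benjamini-Hochberg adjustment at 0.1. Pseudocounts, filters, normalizations, edgeR 4.0.16, DESeq2 1.42.0 and limma-voom on the reads, covariates and leaving out cows were alternatives. Adjustment of r over the members alone, planned first, was replaced by adjustment over all genes. The planned promoter search was not run. Named are the members, up to 4 genes per list with the lowest p, markers at 0, the genes with the highest r in a list, and the 10 highest and 5 lowest r overall. ATP6V1B2 and ATP6V0D1 were added after their values were seen, and SVOPL was chosen after the data were seen. The values of 1 listed gene are not reported here. Scripts were tested on simulated data. Intervals cover the spread between cows.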

Additional observations from a re-analysis of the deposited data

Results flagged for a closer look

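In 34 groups of 5 or 6 cows examined, 10 were flagged by Dixon's 95% criterion. In these, the gap from the highest cow to the next was a large share of the whole range. The criterion assumes normally distributed values and was applied to normalized counts, so its rate of 1 in 20 is no yardstick for this count. The share over all genes was not measured. Cow P1631 was the highest cow in 9 of the 10. The gap was 0.832 of the P range for TMEM213 (1287 against 348 normalized counts), 0.779 for ATP6V1B1 (259 against 81.3) and 0.795 for ATP6V0A4 (418 against 137). Among the genes that most resembled TMEM213 it was 0.864 for PI3, 0.728 for ELF5, 0.729 for EYA2, 0.903 for GP2, 0.729 for TBCK and 0.688 for PAQR4. These genes were chosen for their r with TMEM213, so a high value in the same cow was part of the choice. The gap for ATP6V0D2 was 0.637, with P1753 at 41.3 against 17.1 in P1631.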

How the results depend on the processing

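The number of members other than TMEM213 past an adjusted p of 0.1 was 0 under each of 25 alternatives, although the count over all genes varied. It was 0 in the main limma fit, 201 with DESeq2 and 137 with DESeq2 without P1631. Among the limma alternatives it was 130 with the epithelial score as a covariate, 171 without P904 and 17 without P617 and P1541. The log2 fold change kept its sign for TMEM213 (1.13 to 2.20), ATP6V0A4, ATP6V1B1, ATP6V0D2, CFTR and ATP6V1C2 under every alternative run. That of CA2 turned to 0.17 with P617 as NP, 0.58 with the smooth muscle score and 0.17 without P617 and P1541. The r of ATP6V0A4 with TMEM213 lost its exact permutation p under 0.05 without P1631 (0.727) and without the 2 cows farthest from the TMEM213 median (0.796), and ranged from 0.727 to 0.925 on leaving out 1 cow. That of ATP6V1B1 lost it without these 2 cows (0.780) and ranged from 0.832 to 0.953. Weak r values changed sign. For ATP6V1C2 r was -0.0617 with the epithelial and -0.589 with the smooth muscle score, -0.389 without the 2 farthest cows, -0.105 without P617 and P1541, -0.0182 as Spearman's rho without P1631, and -0.205 to 0.219 on leaving out 1 cow (-0.0823 without P1541, -0.205 without NP638). For CFTR it was -0.0410 with the smooth muscle score and -0.0323 without the 2 farthest cows. For CA2 it was -0.0623 with P617 as NP, -0.0220 and -0.343 with the epithelial and smooth muscle scores, -0.0455 as Spearman's rho, -0.00986 without centring, -0.119 without the 2 farthest cows, -0.227 as Spearman's rho without centring and -0.142 without centring and P1631. The causes were not tested. Leaving out P617 with P1541, Spearman's rho without centring, and the fits of DESeq2, Spearman's rho and uncentred values without P1631, were chosen after seeing the data. With 11 cows, intervals for the members span more than 1 log2 unit, and ATP6V0D2 rests on 1 to 41 reads a cow. No paired analysis was possible because the groups share no replicate numbers.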
